A study of Mus musculus with 6 samples.

Results

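Wnt pathway genes were examined in hematopoietic stem cells (HSC) with and without P-selectin. The set held 32 genes chosen by name for their place in the pathway, from ligands and receptors to the nuclear factors and their targets. Of these, 31 had a probe set of their own, 1 each, among the 19935 genes named on the array, and Tcf7 had none under its name alone. Of the 31, 29 passed the filter on dim probe sets (mean level over the 6 arrays of at least 8.79 on the log2 scale) and were tested. Wnt5a and Fzd4 fell under it. Levels are log2 intensities after background correction and quantile normalization.

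Expression was measured on 6 one-colour Affymetrix arrays of amplified, biotin-labelled total RNA, 3 from wild-type (WT) mice and 3 from Selp-/- mice. Selp encodes P-selectin, an adhesion molecule of platelets and endothelium. Both genotypes are on C57BL/6 by their labels. The sources used here give neither age, sex, the number of mice per array nor how the HSC were sorted. The arrays carry the numbers 1 to 3 within each genotype. No label ties an array to a mouse of its own, so the p-values reflect only the scatter among these 6 samples and that scatter may be technical. The study compared the genotypes to find genes under the control of P-selectin in HSC.

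In the canonical Wnt pathway a secreted Wnt protein binds a Frizzled receptor together with the coreceptor Lrp5 or Lrp6, and Dishevelled then blocks the complex of Axin, Apc, Gsk3b and casein kinase that marks beta-catenin for destruction. Stabilized beta-catenin enters the nucleus and joins factors of the Tcf and Lef family on target genes, among them Axin2 and Nkd1, which feed back as inhibitors. In bone marrow the pathway is known for dose-dependent effects on HSC self-renewal and for roles in lymphoid development.

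The arrays numbered 3 stood apart in both genotypes. The mean level of 14 HSC genes lay between 10.40 and 10.86 in the 4 arrays numbered 1 and 2, and at 9.36 in WT 3 and 9.30 in Selp-/- 3. The stem cell factor Hlf had levels of 12.45, 12.37 and 8.88 in WT 1 to 3 and 12.13, 12.53 and 8.81 in Selp-/- 1 to 3. The mean of 10 mast cell and basophil genes lay between 9.24 and 9.49 in the arrays numbered 1 and 2, and at 12.28 and 11.86 in those numbered 3. Selp-/- 3 had an intensity of 398 for Xist, the transcript of the inactive X, against 5010 to 10757 in the other 5 arrays. The arrays numbered 1 and 2 differed from each other too, with mean neutrophil levels of 11.47 and 10.11 in WT and 11.36 and 10.13 in the Selp-/- arrays, and erythroid levels of 10.33 and 9.41 in WT and 10.39 and 9.37 in the Selp-/- arrays. Between numbers 2 and 1, 3 of 12 neutrophil and 3 of 9 erythroid probe sets were called (limma), against 0.0521% of all probe sets. The Wnt genes are therefore described by array number as well as by genotype. In bulk RNA, fewer cells of a type and less RNA per cell cannot be told apart.

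Promoter sequence from RefSeq (GRCm38.p6) was at hand for 20 of the 32 genes, in 29 windows of 300 bases that run from 250 bases before a transcription start to 50 after it. Each window was searched on both strands for CTTTGAT and CTTTGTT, forms of the core that Tcf and Lef factors bind. The motifs share their first bases but cannot overlap each other on 1 strand. A match occurred in 3 of the 29 windows (10.3%), against 9.33% of all 32851 windows in the table. It lay in Fzd7, Dkk1 and the second listed start of Tcf7l2, each time as CTTTGTT or its reverse complement. Axin2 and Nkd1 are shown as feedback targets, which lay highest in the arrays numbered 3, and Csnk1e as the gene with a window that was called lower there. In these 3 windows neither motif occurred, which says only that these letters are not in the 300 bases. Sequences run 5′ to 3′ along the gene, and capitals mark the match.
Axin2, chr11:108920099-108920398, plus strand: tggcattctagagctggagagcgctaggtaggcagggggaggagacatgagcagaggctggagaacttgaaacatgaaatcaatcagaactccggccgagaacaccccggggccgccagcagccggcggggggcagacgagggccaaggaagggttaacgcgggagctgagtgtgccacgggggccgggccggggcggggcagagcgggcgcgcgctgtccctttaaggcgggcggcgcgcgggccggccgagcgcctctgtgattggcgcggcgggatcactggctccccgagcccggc
Nkd1, chr8:88527383-88527682, plus strand: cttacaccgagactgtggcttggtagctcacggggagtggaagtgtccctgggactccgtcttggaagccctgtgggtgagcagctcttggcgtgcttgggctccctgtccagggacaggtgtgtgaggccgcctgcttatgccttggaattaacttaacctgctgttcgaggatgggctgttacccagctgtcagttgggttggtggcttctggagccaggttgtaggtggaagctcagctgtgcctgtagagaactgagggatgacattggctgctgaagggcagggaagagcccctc
Csnk1e (first listed start), chr15:79442094-79442393, minus strand: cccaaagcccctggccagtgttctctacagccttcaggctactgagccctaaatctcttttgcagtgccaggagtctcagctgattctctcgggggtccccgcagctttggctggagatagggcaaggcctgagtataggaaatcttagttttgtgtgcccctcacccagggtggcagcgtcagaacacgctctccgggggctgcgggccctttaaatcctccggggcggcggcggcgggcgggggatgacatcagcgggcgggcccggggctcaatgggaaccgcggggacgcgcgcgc
Fzd7, chr1:59481897-59482196, plus strand: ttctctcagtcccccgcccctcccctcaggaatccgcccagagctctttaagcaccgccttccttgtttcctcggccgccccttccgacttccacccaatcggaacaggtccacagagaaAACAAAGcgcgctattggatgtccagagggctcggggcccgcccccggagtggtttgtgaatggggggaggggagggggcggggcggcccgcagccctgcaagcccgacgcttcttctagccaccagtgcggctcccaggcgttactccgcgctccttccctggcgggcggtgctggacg
Dkk1, chr19:30549447-30549746, minus strand: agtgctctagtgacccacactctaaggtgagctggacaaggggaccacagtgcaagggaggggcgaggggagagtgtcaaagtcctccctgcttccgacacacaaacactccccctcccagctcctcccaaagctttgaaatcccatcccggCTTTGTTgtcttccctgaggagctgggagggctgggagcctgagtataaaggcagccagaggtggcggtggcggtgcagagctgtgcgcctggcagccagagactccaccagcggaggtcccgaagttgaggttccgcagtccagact
Tcf7l2 (second listed start), chr19:55895071-55895370, plus strand: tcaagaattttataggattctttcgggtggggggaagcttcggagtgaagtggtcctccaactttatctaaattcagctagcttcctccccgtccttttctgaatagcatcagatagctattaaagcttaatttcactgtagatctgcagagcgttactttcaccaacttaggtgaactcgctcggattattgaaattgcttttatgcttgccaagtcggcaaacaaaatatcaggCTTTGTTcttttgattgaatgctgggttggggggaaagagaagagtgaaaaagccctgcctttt

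Between the genotypes the Wnt genes were measured at close levels. In the Selp-/- arrays 0 of the 29 were called higher and 0 lower (limma, Benjamini-Hochberg over 17289 probe sets, threshold 0.05), as were 0% of all probe sets in either direction. The lowest adjusted p among the 29 was 1, and 0 of them lay under an unadjusted p of 0.05, against 0.706% of all probe sets. With the array number as a replicate block 0 were called, and 0 lay under an unadjusted 0.05, against 3.64% of all probe sets. Differences (Selp-/- minus WT, log2) ran from -0.17 in Jup to 0.22 in Tcf7l2, with a median of 0.0334 over the 29 genes and of 0.00539 over all probe sets. The genotypes overlapped for every one of the 29, while 2.24% of all probe sets lay wholly above WT in the Selp-/- arrays and 1.97% wholly below, together 4.21%.

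In the arrays numbered 1 and 2 alone the 29 differences ran from -0.17 in Tcf3 to 0.24 in Fzd6, and 0 were called (limma). Against the values from all arrays, 7 changed sign. These were Wls (-0.12), Fzd7 (-0.03), Axin1 (-0.07), Gsk3b (0.04), Tcf7l2 (-0.07), Myc (0.04) and Ccnd1 (0.09), with SE of 0.12 to 0.20. Wnt10b stood at 0.18 and Dvl2 and Fzd8 at 0.16.

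The intervals of the fit on genotype alone show what that fit could and could not exclude. The 95% interval of the difference lay within 1 on the log2 scale on either side of 0 for 28 of the 29 genes, and within 0.5 for 18. Fzd6 was the exception at 1, with an interval from -0.95 to 1.01. A missed threshold does not show equal levels, and differences inside these intervals were not excluded by that fit with 3 arrays per genotype. It counted the spread between array numbers as error. With the array number as a replicate block the SE was 0.15 in place of 0.41 for Fzd6 and 0.12 in place of 0.34 for Fzd8. For Dvl2 it was 0.13 in both fits.

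**Figure D1:**
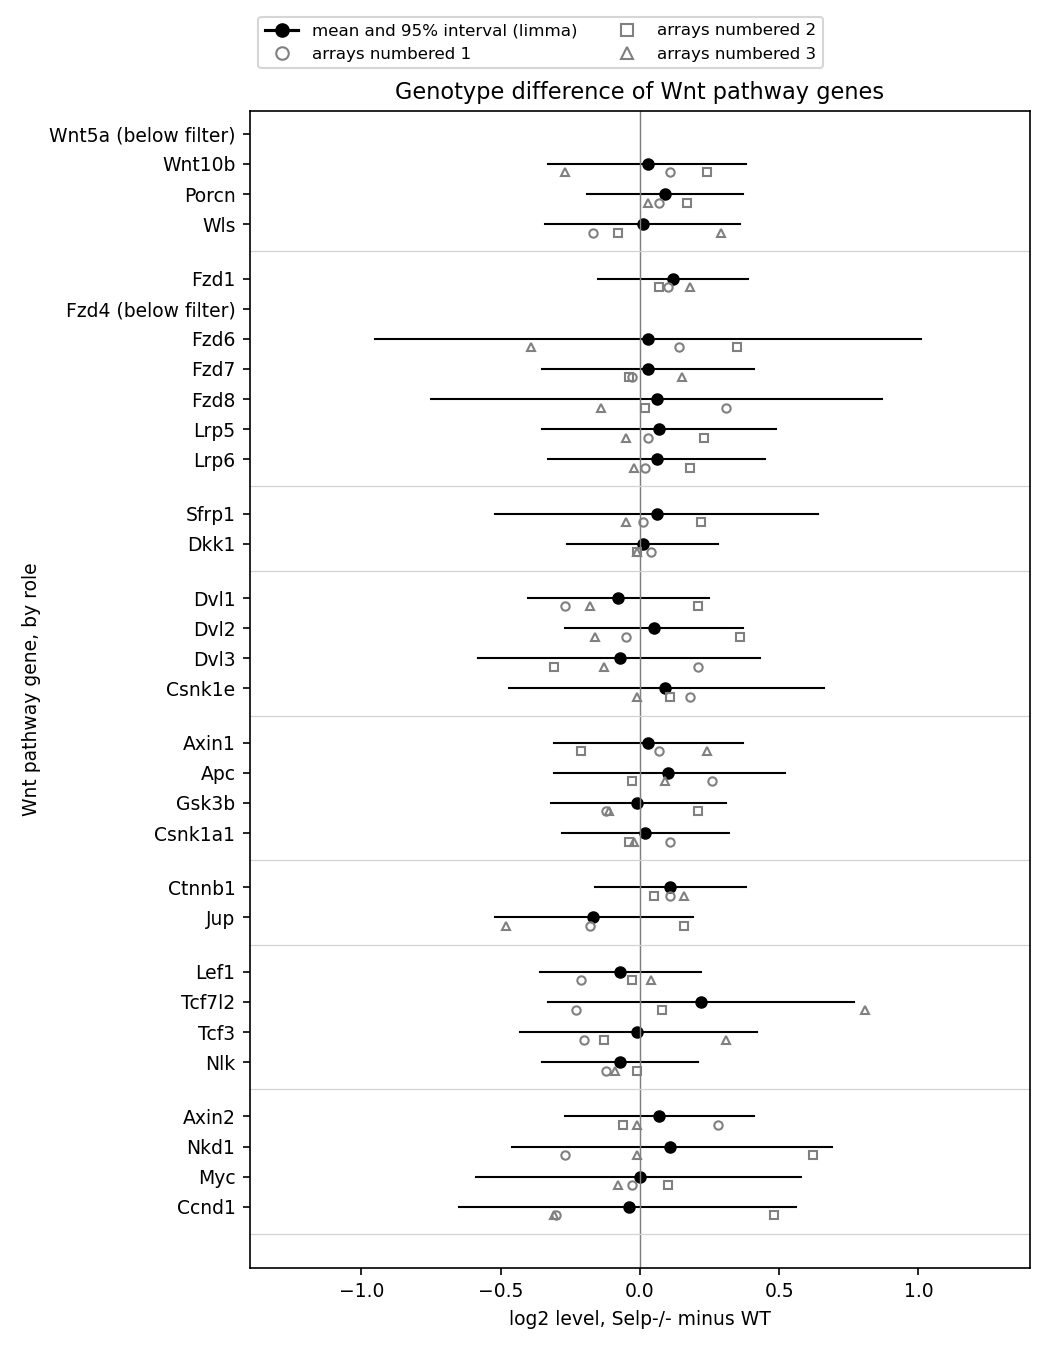
Difference in log2 level, Selp-/- minus WT, of 29 Wnt pathway genes ordered by role. Black points and lines give the mean and its 95% interval from limma, and open grey symbols give the difference within the arrays numbered 1 (circle), 2 (square) and 3 (triangle). All 29 intervals include 0, and the 3 grey symbols lie on both sides of 0 for most genes.

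Beta-catenin itself, the gene Ctnnb1, was among the steadiest of the set. It measured 11.81, 11.97 and 11.85 in WT 1 to 3 and 11.92, 12.02 and 12.02 in Selp-/- 1 to 3. The genotypes overlapped, with means of 11.88 ± 0.08 and 11.99 ± 0.06 (SD, n = 3) and a difference of 0.11 (95% interval -0.16 to 0.38). Jup, or plakoglobin, is the relative of beta-catenin that sits in cell junctions and can also bind Tcf factors. Its level was 9.98, 9.92 and 10.11 in WT and 9.80, 10.08 and 9.63 in the Selp-/- arrays. The difference of -0.17 (SE 0.15) came to -0.01 in the arrays numbered 1 and 2 alone, so it rested on the pair numbered 3, which differed by -0.48.

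Among the nuclear factors, Tcf7l2, which binds beta-catenin on DNA, had the largest difference of the set. It measured 10.20, 10.26 and 9.50 in WT and 9.97, 10.35 and 10.30 in the Selp-/- arrays. WT 3 was low and the other 5 arrays lay together. The difference of 0.22 (SE 0.23, 95% interval -0.33 to 0.77) turned to -0.07 in the arrays numbered 1 and 2 alone. Lef1, the lymphoid enhancer factor, differed by -0.07 (SE 0.12), with levels of 9.13, 8.79 and 8.86 in WT and 8.92, 8.76 and 8.90 in the Selp-/- arrays. Nlk, a kinase that phosphorylates Tcf and Lef factors, varied least of the 29 over the 6 arrays, by 0.13 from lowest to highest. It lay at 10.71 ± 0.07 in WT and 10.64 ± 0.01 in the Selp-/- arrays (SD, n = 3).

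The symbol Tcf3 belongs to the basic helix-loop-helix factor E2A of lymphoid development, and the Wnt effector once called Tcf3 is now Tcf7l1. Tcf3 was kept in the set by its symbol. All counts and medians of the Wnt genes, the nuclear factors and the core components therefore include it. Tcf3 measured 11.31, 11.27 and 10.74 in WT and 11.11, 11.13 and 11.06 in the Selp-/- arrays, a difference of -0.01 (SE 0.18). Tcf7l1, named here for that reason, lay at 8.99 ± 0.16 and 9.10 ± 0.16 (SD, n = 3).

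Each of the 6 tested receptors had a genotype difference just above 0, from 0.03 to 0.12, and 0 of 6 passed the test. Fzd7 turned below 0 in the arrays numbered 1 and 2 alone. The receptor median was 0.0615, and the SE of single receptors ran from 0.11 for Fzd1 to 0.41 for Fzd6. Fzd4, the receptor below the filter, differed by -0.06. Of 6 other Wnt receptors tested in the second list described below, 3 lay above 0, with a median of -0.00601. Over all 17289 tested probe sets 8962 lay above 0. Fzd1 gave 0.12 and was above 0 in each pair of arrays of the same number (0.10, 0.07 and 0.18). The coreceptors Lrp5 and Lrp6 gave 0.07 (SE 0.18) and 0.06 (SE 0.16). Over all 29 genes, Selp-/- minus WT kept 1 sign in all 3 array numbers for 4. These were Porcn, Fzd1 and Ctnnb1 above 0 and Nlk below. That is 13.8%, against 23.8% of all tested probe sets.

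Ligands and the machinery of ligand release showed as little. Porcn, which attaches the lipid that Wnt proteins need, gave 0.09 (SE 0.12). Wls, the carrier that brings Wnt proteins to the cell surface, gave 0.01 (SE 0.15), with levels of 10.71, 10.60 and 10.30 in WT and 10.54, 10.51 and 10.59 in the Selp-/- arrays. Wnt10b gave 0.03 (SE 0.15). Wnt5a, the ligand of non-canonical signalling, was below the filter, at 8.81, 8.69 and 8.62 in WT and 8.60, 8.65 and 8.47 in the Selp-/- arrays, and was not tested. Of the secreted inhibitors, Dkk1, which blocks Lrp5 and Lrp6, gave 0.01 (95% interval -0.26 to 0.28), and Sfrp1, which binds Wnt proteins, 0.06 (-0.52 to 0.64).

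In the destruction complex and at Dishevelled the differences had both signs. The kinases Gsk3b and Csnk1a1 gave -0.01 (SE 0.13) and 0.02 (SE 0.13). The scaffolds Axin1 and Apc gave 0.03 (SE 0.14) and 0.10 (SE 0.17). Dvl1, Dvl2 and Dvl3, the 3 Dishevelled genes, gave -0.08, 0.05 and -0.07. Csnk1e, the casein kinase that acts on Dishevelled, gave 0.09 (SE 0.24).

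Target genes, whose transcripts respond to beta-catenin in many tissues, had a median difference of 0.033 over 4 genes. Axin2 measured 8.75, 9.09 and 9.22 in WT and 9.03, 9.03 and 9.21 in the Selp-/- arrays, a difference of 0.07 (SE 0.14). Nkd1 measured 9.36, 8.66 and 9.54 in WT and 9.09, 9.28 and 9.53 in the Selp-/- arrays. WT 2 was the low array, and the difference of 0.11 (SE 0.24) was 0.62 within the pair numbered 2 and -0.27 and -0.01 within the others. Ccnd1, which encodes cyclin D1, gave -0.04 (SE 0.25) and Myc 0.00 (SE 0.25). The 3 classes had medians of 0.0615 for receptors, 0.00481 for the 14 core components (Dishevelled and Csnk1e, destruction complex, catenins, nuclear factors) and 0.033 for targets. These medians are given with no test, beside 0.00539 for all probe sets.

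The array number separated the Wnt genes more than the genotype did. Over the 29 genes the median size of the difference was 0.237 between the arrays numbered 3 and the mean of those numbered 1 and 2, and 0.0622 between the genotypes, against 0.196 and 0.0814 over all tested probe sets. The labels do not say what the numbers stand for. The test over the 3 numbers (limma F with genotype in the model, adjusted p under 0.05) called 5 of the 29 genes, or 17.2%, against 12.8% of all probe sets. The count was 2 without WT 2 or WT 3 and 1 without Selp-/- 3. In the contrast of number 3 with numbers 1 and 2, 5 were called lower and 0 higher. The background was 11.7% of all probe sets called lower and 9.13% higher, so a share of 17.2% called lower, or 5 genes, lay not far from that of all probe sets. Between numbers 2 and 1, 0 of the 29 were called (limma), against 0.0521% of all probe sets.

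**Figure D2:**
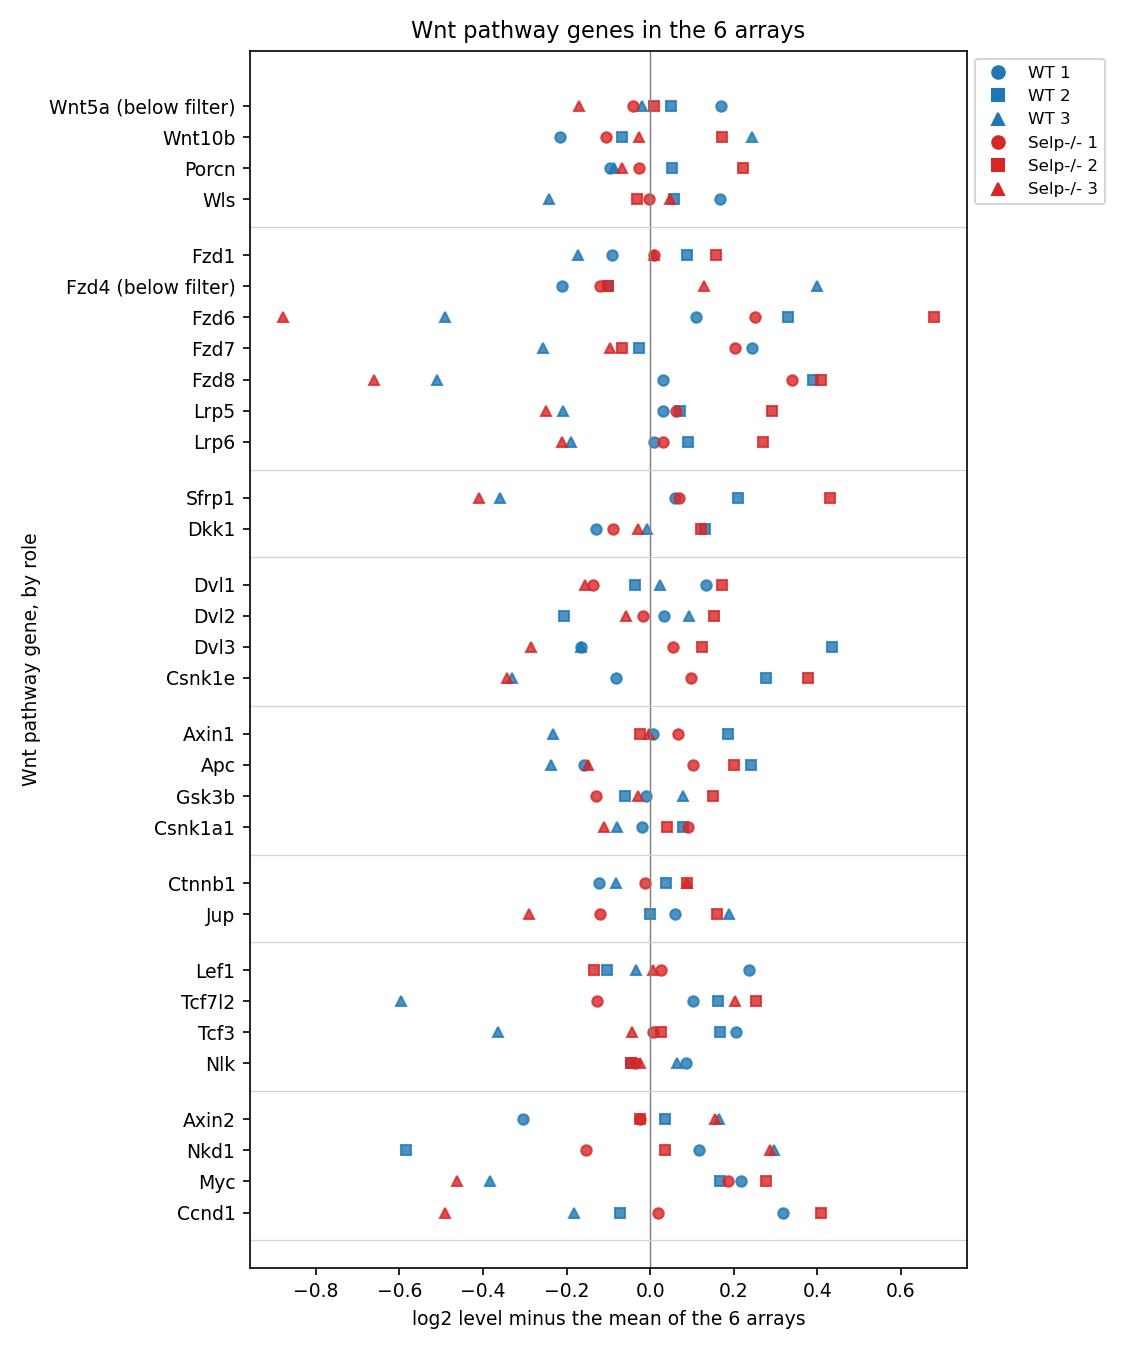
Log2 level of each Wnt pathway gene minus its mean over the 6 arrays, by role. Colours give the genotype and symbols the array number, and Wnt5a and Fzd4 were below the filter. The triangles of both genotypes lie at the low end for Fzd6, Fzd8, Sfrp1, Csnk1e and Myc, whose levels ran over 0.72 or more, while Nlk spans 0.13.

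The 5 genes called lower in the arrays numbered 3 were the receptors Fzd6 and Fzd8, the inhibitor Sfrp1, the kinase Csnk1e and the target Myc. Fzd6, a Frizzled known for planar polarity and for restraining canonical signalling, measured 9.73, 9.95 and 9.13 in WT and 9.87, 10.30 and 8.74 in the Selp-/- arrays. Both arrays numbered 3 lay below the other 4. The contrast was -1.03 (SE 0.16), or 2.04 times lower, at an adjusted p from limma of 0.00642. Fzd8, a receptor of canonical signalling that has also been tied to quiescent HSC in the niche, measured 9.08, 9.44 and 8.54 in WT and 9.39, 9.46 and 8.39 in the Selp-/- arrays. It was 1.84 times lower in the arrays numbered 3 (log2 -0.88, SE 0.13, adjusted p from limma 0.0049). Its mean of 8.46 in those arrays was under 8.79, the level of the filter, so it was tested only through the arrays numbered 1 and 2, where it is high.

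Sfrp1 followed the same arrays. Its levels were 9.17, 9.32 and 8.75 in WT and 9.18, 9.54 and 8.70 in the Selp-/- arrays, and the contrast was -0.58 (SE 0.11, adjusted p from limma 0.0131). Csnk1e stood at 11.22, 11.58 and 10.97 in WT and 11.40, 11.68 and 10.96 in the Selp-/- arrays, with a contrast of -0.50 (SE 0.11, adjusted p from limma 0.0206). For both genes the arrays numbered 3 lay below the other 4. Sfrp1, with a mean of 8.72 in the arrays numbered 3, also passed the filter only through the others. Apart from it and Fzd8, 3 of the lower calls were of genes above the filter in both sets of arrays. The calls of Csnk1e and Sfrp1 were the least firm. Csnk1e lost its call without WT 2, WT 3, Selp-/- 1 or Selp-/- 3 (limma, adjusted p of 0.054, 0.0942, 0.0619 and 0.164), and Sfrp1 without Selp-/- 3 (0.0851). Without background correction and normalization neither was called, at -0.21 and -0.25 (limma, adjusted p of 0.382 and 0.183). On that scale the median of all probe sets lay 0.200 higher in the arrays numbered 3.

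Myc, the transcription factor of growth and division that is both a Wnt target and a regulator of HSC exit from the niche, was tight within each set of arrays. It measured 12.84, 12.79 and 12.24 in WT and 12.81, 12.90 and 12.16 in the Selp-/- arrays. The arrays numbered 3 were thus 1.55 times lower (log2 -0.64, SE 0.09, adjusted p from limma 0.00462). Ccnd1 had levels of 10.74, 10.35 and 10.24 in WT and 10.44, 10.83 and 9.93 in the Selp-/- arrays. Its contrast of -0.50 (SE 0.18) did not pass (limma, adjusted p 0.0982), and was called without WT 2 (-0.71, adjusted p from limma 0.0241).

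The feedback targets did not share the direction of Myc. Both arrays numbered 3 lay above the other 4 for Axin2 and for Nkd1, with contrasts of 0.24 (SE 0.12) and 0.44 (SE 0.18) that did not pass (limma, adjusted p of 0.201 and 0.133). Nkd1 was called without Selp-/- 2 (0.63, adjusted p from limma 0.0239), and both were called without background correction and normalization (0.39 and 0.56, adjusted p from limma of 0.0268 and 0.000989). On that last scale the median of all probe sets lay 0.2 higher in the arrays numbered 3, and 83.6% of all calls were higher. By the sign of the contrast the target genes were split, with 2 below 0 and 2 above.

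**Figure D3:**
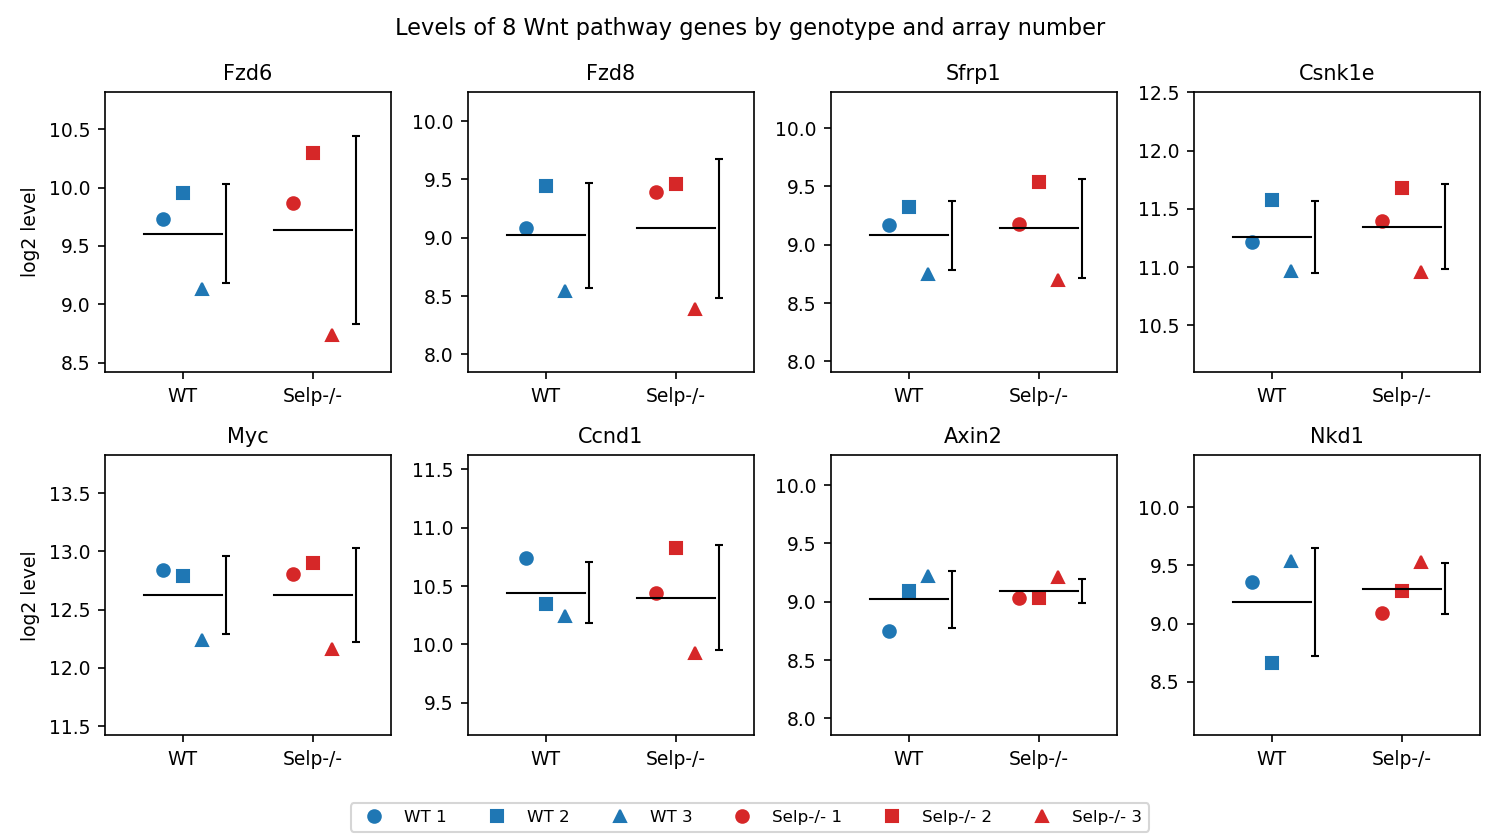
Log2 levels of 8 Wnt pathway genes in WT and Selp-/- HSC, each panel spanning 2.4 log2 units around its mean. Symbols are single arrays (circle number 1, square number 2, triangle number 3), the horizontal line is the mean of 3 arrays and the bar beside it 1 SD. Triangles are lowest in Fzd6, Fzd8, Sfrp1, Csnk1e, Myc and Ccnd1 and highest in Axin2 and Nkd1, in both genotypes.

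Counted by overlap alone, both arrays numbered 3 lay below the other 4 for 12 of the 29 genes (41.4%), against 25.1% of all probe sets, and above them for 2 (6.9%), against 20.1%. The 12 included 5 of the 6 tested receptors, namely Fzd6, Fzd7, Fzd8, Lrp5 and Lrp6. Lrp5 measured 10.67, 10.71 and 10.43 in WT and 10.70, 10.93 and 10.39 in the Selp-/- arrays. Its contrast was -0.34 (SE 0.12), and that of Lrp6 was -0.30 (SE 0.11), neither past the threshold (limma, adjusted p of 0.0812 and 0.103). Fzd7 gave -0.27 and Fzd1 -0.12. Fzd4, a receptor below the filter, went the other way, with 8.36, 8.47 and 8.97 in WT and 8.45, 8.47 and 8.70 in the Selp-/- arrays.

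By role, the median contrast was -0.321 for the 6 receptors, -0.124 for the 14 core components and -0.133 for the 4 targets, against -0.0126 for all tested probe sets. The 6 receptors were below 0 under quantile normalization and under median centring, and 5 of 6 without background correction and normalization, where all 6 lay below the median of all probe sets. Of the 14 core components 1 was called lower, Csnk1e. Ctnnb1 gave 0.00 (SE 0.10), Gsk3b 0.04 (SE 0.12), Nlk 0.03 (SE 0.11) and Lef1 -0.02 (SE 0.11). Beta-catenin and its kinase Gsk3b thus stood at like levels in both sets of arrays, within about 1 SE. The contrasts not called ran from -0.50 to 0.44.

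The genotypes could be read side by side for this contrast, since they share no array. The contrast was below 0 in WT for 22 of the 29 genes and in Selp-/- for 22, below 0 in both for 18 (62.1%), above 0 in both for 3 (10.3%), and of opposite sign for 8 (27.6%). Over all probe sets 51.9% were below 0 in WT and 52.4% in Selp-/-. The shares were 39.6% below 0 in both, 35.2% above in both and 25.2% of opposite sign. Fitted over both genotypes, 22 of the 29 were below 0, and 13 without background correction and normalization, where 22 lay below the median of all probe sets. The median was -0.239 in WT and -0.161 in the Selp-/- arrays. For the 5 called genes the values in WT and Selp-/- were -0.72 and -1.35 (Fzd6), -0.73 and -1.03 (Fzd8), -0.50 and -0.66 (Sfrp1), -0.43 and -0.58 (Csnk1e) and -0.58 and -0.69 (Myc). Tcf7l2 differed most between the genotypes, with -0.73 in WT and 0.15 in the Selp-/- arrays. With 1 array numbered 3 in each genotype that difference was not tested. Tcf7l2 was called lower without Selp-/- 3 (-0.73, adjusted p from limma 0.0307).

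**Figure D4:**
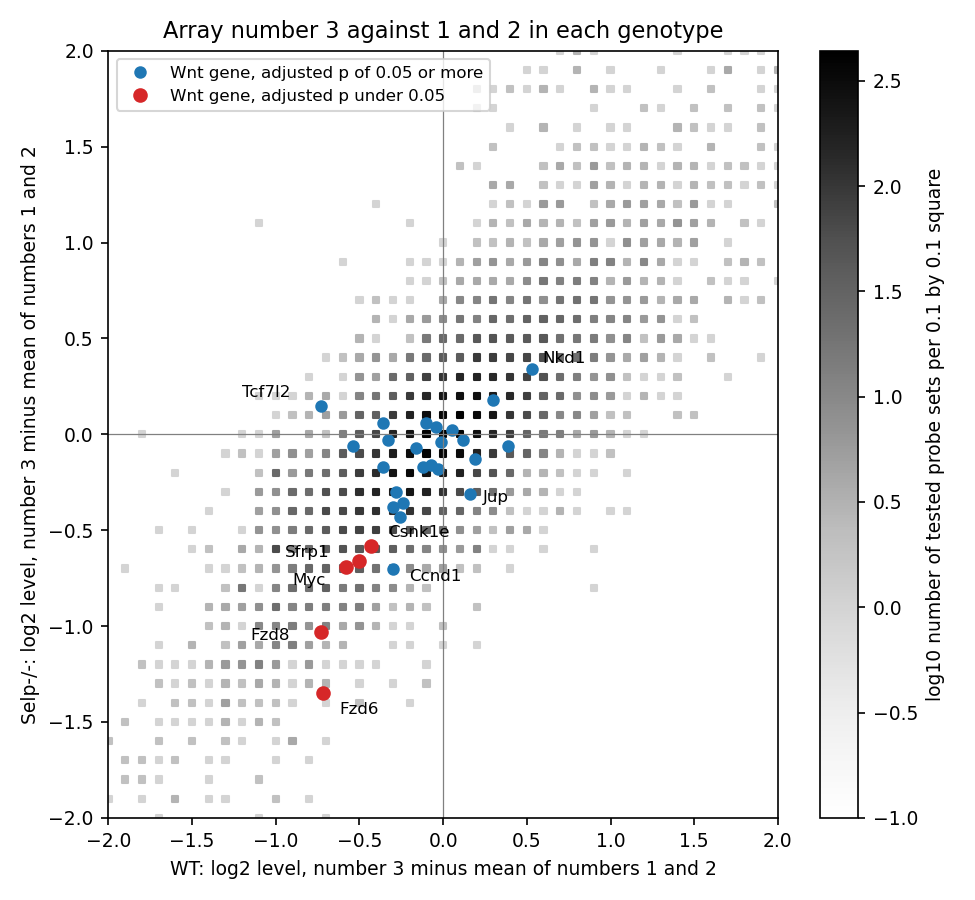
Log2 level in the array numbered 3 minus the mean of the arrays numbered 1 and 2, in WT (x axis) and in the Selp-/- arrays (y axis). Grey squares count all tested probe sets within the plotted range, blue points are Wnt pathway genes not called and red points the 5 called lower. The red points lie at or below -0.43 on both axes, and Tcf7l2 lies at -0.73 and 0.15.

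Markers of several cell types moved with the same arrays. Over all probe sets 11.7% were called lower in the arrays numbered 3 and 9.13% higher. Of 14 tested HSC probe sets 11 were called lower in the arrays numbered 3 and 1, Gata2, which mast cells also express, higher. Of 8 mast cell and basophil probe sets 7 were called higher, of 12 neutrophil ones 10, of 10 monocyte ones 6, and of 10 megakaryocyte ones 4. Of 9 erythroid probe sets 4 were called lower, as were 6 of 11 endothelial and 3 of 12 B lymphoid ones, beside Il7r higher among the latter. The mean erythroid level in number 3 (9.22 in WT, 9.15 in Selp-/-) lay near that in number 2 (9.41 and 9.37). Number 1 stood higher, at 10.33 and 10.39. Both arrays numbered 3 lay below the other 4 for 3 of the 9 erythroid probe sets. For Klf1, called lower, WT 3 (8.92) lay above WT 2 (8.49). The B lymphoid lower calls came from Ebf1 and Ighm alone. Of the 11 endothelial contrasts 8 were below 0 and 3 above. Cdh5 and Pecam1 were among those above, at 0.35 and 0.60, and were not called (limma, adjusted p of 0.0637 and 0.0861). Some of these markers passed the filter only through the arrays where they are high. Among the higher calls these were Fcer1a, Gzmb and Tpsb2 of mast cells and basophils, Cxcr2 of neutrophils, and Adgre1 and Ccr2 of monocytes. Among the lower calls they were Mecom and Tek of HSC, Klf1 and Rhd of erythroid and Ebf1 and 1 probe set of Ighm of B lymphoid cells. Of 5 T and NK lymphoid probe sets Thy1 and Nkg7 were called higher. Mecom, an HSC factor, measured 10.10, 10.11 and 8.16 in WT and 9.78, 10.38 and 8.01 in the Selp-/- arrays. Mcpt8, a basophil protease, measured 9.38, 9.65 and 14.17 in WT and 9.60, 9.57 and 13.95 in the Selp-/- arrays.

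Stromal cells are a known source of Wnt5a, Sfrp1 and Dkk1 in marrow. The mean level of the 12 stromal markers ran from 8.66 to 8.93 in WT and from 8.60 to 9.01 in the Selp-/- arrays, highest in the arrays numbered 3 of each. Of these markers 7 passed the filter, and Sparc and Dcn were called higher there, Dcn with a mean below the filter in the arrays numbered 1 and 2. Cxcl12 and Lepr, which define marrow stroma, were below it in mean level. The part of other cell types in the contrast of the Wnt genes was not tested.

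The rest of the pathway was read from a second list of 122 Wnt genes, of which 120 had a probe set and 91 probe sets were tested. In the genotype comparison 0 of the 91 were called (limma), and their median difference was 0.0116. With the replicate block 3 lay under an unadjusted p of 0.05, against 3.64% of all probe sets. Without it 2 did, against 0.706%. The 2 were Tnks, a poly-ADP-ribosylating enzyme that marks Axin for breakdown, and the ligand Wnt6. Tnks measured 10.14, 10.12 and 10.18 in WT and 10.35, 10.59 and 10.44 in the Selp-/- arrays, all 3 above WT. The difference was 0.31 (SE 0.12). Wnt6 measured 9.13, 8.85 and 9.03 in WT and 8.63, 8.83 and 8.65 in the Selp-/- arrays, all 3 below, a difference of -0.30 (SE 0.12). The adjusted p from limma was 1 for each.

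In this second list 7 probe sets lay wholly above WT in the Selp-/- arrays and 1 wholly below, together 8.79%, against 4.21% of all probe sets. Next in p on the higher side came 1 of 2 probe sets of the ligand Wnt4, the kinase Camk2d of the calcium branch with 0.30 and the ligand Wnt11 with 0.23. The Wnt4 probe sets disagreed, at 0.20 (SE 0.10) and -0.12 (SE 0.13). So did those of Tbl1xr1, a corepressor exchange factor, at -0.33 (SE 0.17) and 0.13 (SE 0.13), and no direction is given for either gene. On the lower side Prickle3 of planar polarity gave -0.23, and Cd44, a surface receptor and Wnt target, -0.17. These 6 genes did not pass, each with an adjusted p from limma of 1 for the probe set of smallest p. In the arrays numbered 1 and 2 alone Tnks gave 0.33, Wnt6 -0.26, Wnt11 0.31, Camk2d 0.15, Prickle3 -0.08 and Cd44 -0.11.

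By array number, 12 of the 91 were called lower in the arrays numbered 3 (13.2%) and 4 higher (4.4%), against 11.7% and 9.13% of all probe sets. Without background correction and normalization 3 were lower and 15 higher, on the scale where all probe sets shift by 0.200. Znrf3, a ubiquitin ligase that clears Frizzled from the cell surface, had a contrast of -0.84 (SE 0.10), and Ryk, an atypical Wnt receptor, -0.80 (SE 0.11), with a mean of 8.59 in the arrays numbered 3 that was below the filter. Crebbp, the acetyltransferase that coactivates with beta-catenin, gave -0.86 (SE 0.12) and the kinase Mapk9 -0.59 (SE 0.12). Higher were Celsr3 of planar polarity with 0.89 (SE 0.14), the target Fosl1 with 0.63 (SE 0.11), the corepressor Tle1 with 0.49 (SE 0.11) and Dact3, a binder of Dishevelled, with 0.43 (SE 0.11). Celsr3 had a mean of 8.63 in the arrays numbered 1 and 2 and passed the filter only through those numbered 3. All 8 had an adjusted p from limma of 0.0352 or less. Of the 12 lower calls, 6 were among the 21 tested probe sets of nuclear factors. The lower calls numbered 3 to 8 when 1 array was left out, whichever it was, with 3 without Selp-/- 3 and 4 without WT 3. The higher calls numbered 2 without WT 1, WT 2, WT 3 or Selp-/- 1.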

How the data were processed

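The authors deposited linear probe set intensities for 28815 probe sets on 6 arrays, and per the submitters' processing notes MAS5 was used (version not given). All of these values were multiples of 0.5, with array medians of 563 to 751 and lowest values of 43 to 55, so no scaling or background subtraction was visible, and a scale factor, if any, stays unknown. Arrays give no read depth, and their number limits the precision.

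Intensities were corrected with normexp (offset 50), log2 transformed and quantile normalized in limma 3.58.1 under R 4.3.3. Probe sets below the 40th percentile of mean level were left out, which kept 17289. Genotype was fitted with lmFit and eBayes with a variance trend, two-sided. A second model held genotype and array number. The scripts were tested on simulated data with the same spread for all probe sets and, apart from the probe sets changed on purpose, no spread between array numbers. Genotype calls were counted there from the fit with array number only, so the power of the fit on genotype alone was not checked. The labels' numbers were taken to pair the arrays. Deviations from the genotype means correlated at 0.428, 0.526 and 0.814 between the genotypes for numbers 1, 2 and 3. The arrays numbered 3 pull these means in both genotypes, and arrays of unlike number were not correlated. The values therefore cannot show that numbers 1 and 2 pair.

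Names came from the platform annotation, updated through gene identifiers in RefSeq (GRCm38.p6). Of the probe sets, 21780 had 1 symbol (21689 matched), 1605 several and 5430 none, and only those with 1 symbol were named. The genes, lists and array number contrasts were chosen with earlier results of these data known. Every one of the Wnt genes with a probe set is reported. From the second list up to 4 per direction by smallest p were named, and from each cell type list up to its first 2. Xist, Tcf7l1 and the genes behind single counts were chosen after their values were seen. Alternatives changed the background correction, normalization, filter, variance trend and arrays used.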

Additional observations from a re-analysis of the deposited data

Results flagged for a closer look

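In 3 genes the array numbered 3 lay on opposite sides of the other arrays in the 2 genotypes. Relative to the mean of the arrays numbered 1 and 2, Wls lay at -0.36 in WT and 0.06 in Selp-/- HSC. Dvl2 lay at 0.19 in WT and -0.13 in Selp-/- HSC. Jup lay at 0.16 in WT and -0.31 in Selp-/- HSC. With 1 such array per genotype, the difference between the genotypes was not tested for any of the 3.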

How the results depend on the processing

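The count of 0 Wnt genes called between genotypes held under every alternative run, including the replicate block, which changed no call. With the arrays numbered 1 and 2 alone, 4 probe sets were called in all and 0 of the Wnt genes, whose median difference was 0.0848. Without background correction and normalization that median was 0.143, beside 0.108 for all probe sets, and it ran from -0.0529 to 0.085 when single arrays were left out, below 0 without WT 3 (-0.0461) and without Selp-/- 2 (-0.0529). Single genotype differences changed sign for 0 to 12 of the 29 genes, most without WT 3, and none was called. By array number, the setting without background correction and normalization moved most. There 5901 probe sets were called by the F test, 2 Wnt genes higher and 3 lower, and 15 of the second list higher and 3 lower, while calls over all probe sets split into 83.6% higher and 16.4% lower, against 43.8% and 56.2%. Without a filter 2 of the second list were higher. Leaving out single arrays gave 1036 to 2153 probe sets and 1 to 5 Wnt genes by the F test (1 without Selp-/- 3, 2 without WT 2 or WT 3). It gave 4 to 5 Wnt genes lower and 0 to 1 higher, and 3 to 8 of the second list lower and 2 to 4 higher, the 3 without Selp-/- 3. Fzd6, Fzd8 and Myc were called lower under all 11 alternatives run on this contrast. Of these genes, Fzd8 had a mean of 8.46 in the arrays numbered 3, below the filter of the main fit, and passed only through the other arrays. The second list's alternatives were added after seeing the data. A left-out array leaves 1 array of its number, assumed to vary like the others. The causes of these changes were not tested.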
